A study of Rattus norvegicus with 4 samples.

Results

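The lysosomal cathepsins are 10 protease genes, Ctsa, Ctsb, Ctsc, Ctsd, Ctsf, Ctsh, Ctsk, Ctsl, Ctss and Ctsz, taken from the 32883 genes of the count table by their gene symbol. Their transcripts were counted by RNA sequencing in HSC-T6, a rat hepatic stellate cell line kept in culture, in 2 libraries of cells treated with ginsenoside Rk1 and 2 of untreated cells. Rk1 is a saponin of processed ginseng, written GRK1 in the treatment labels and named in the series title. Dose, time of exposure and vehicle are not stated. All libraries come from this single cell line, and whether a group's 2 libraries are separate cultures is not stated either. The p-values thus rest on a spread that may be only technical, and n = 2 per group holds throughout.

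Cathepsins are made as inactive precursors in the endoplasmic reticulum, tagged with mannose 6-phosphate in the Golgi and carried to endosomes and lysosomes, where the acid pH and other proteases release the active enzyme. The members share a location but not a catalytic chemistry. Ctsb, Ctsc, Ctsf, Ctsh, Ctsk, Ctsl, Ctss and Ctsz encode papain-type cysteine proteases, Ctsd encodes an aspartic protease related to pepsin, and Ctsa encodes a serine carboxypeptidase. In the liver they break down endocytosed and autophagic protein, and some of them, when secreted, cut collagen and other matrix.

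Total counts ran from 18008586 to 18125005 in the Rk1 libraries and from 18175053 to 20430930 in the untreated libraries. Counts were scaled by library total and a trimmed-mean factor (TMM) to CPM. Of the stellate markers, Vim and Col1a1 were abundant (at least 1176 CPM in every library), Des was at 5.06 to 7.46 CPM and Lrat, the enzyme that stores retinol, had 0 counts in all 4 libraries. Of 7 tested stellate markers 4 fell and 0 rose, where 10.5% of all tested genes were called lower and 11.5% higher. Those that fell were Col1a1 (-0.59 ± 0.04), Col3a1 (-0.88 ± 0.03), Acta2 (-2.44 ± 0.39) and Gfap (-1.88 ± 0.32, log2 fold change ± SE). Their edgeR adjusted p was 1.0e-04, 1.9e-05, 0.0047 and 0.0064. Acta2 and Gfap were scarce. Acta2 had 16 and 6 counts with Rk1, against 73 and 56 untreated, and Gfap 22 and 12, against 80 and 55. The summed level of the list was 11800 to 11900 CPM with Rk1 and 17700 to 18700 CPM untreated, and its part in the cathepsin results was not tested. Of 10 leukocyte markers, looked at because several cathepsins are typical of macrophages, Ptprc, Adgre1 and Marco had 0 counts in every library and Csf1r at most 2. Their summed level was 55.9 to 56.9 CPM with Rk1 and 44.5 to 47.4 CPM untreated, nearly all of it Cd14, which rose by 0.31 ± 0.05 (edgeR adjusted p = 0.0076). Of the hepatocyte and endothelial markers only Tf and Tek were abundant enough to be tested, and neither passed.

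Cathepsin transcripts were higher with Rk1 as a sum, and the increase came from the abundant members. The 10 genes together had 3085 and 3030 CPM in Rk1 cells, against 2347 and 2296 CPM in untreated cells, or 0.308% and 0.305% of all counts against 0.233% and 0.230%. In bulk RNA, a change in the share of cells that express a gene and a change in RNA per cell cannot be told apart. Of the 10, 9 were abundant enough to be tested and Ctsc was not. In edgeR's quasi-likelihood test, with p-values adjusted by Benjamini-Hochberg over 12316 genes and called under 0.05, 5 rose (Ctsl, Ctsb, Ctsf, Ctsd and Ctsa), 1 fell (Ctsz) and 3 did not pass (Ctsh, Ctsk and Ctss). Of all tested genes 22.0% were called, 11.5% higher and 10.5% lower. The median log2 fold change was 0.32 over the 9 tested cathepsins and 0.00 over all tested genes. The 5 genes that rose are the only members of the family whose Rk1 libraries both lay above both untreated libraries, an arrangement found in 32.1% of tested genes. In the 4 other tested members both Rk1 libraries lay below both untreated libraries, as in 30.9% of tested genes.

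**Figure D1:**
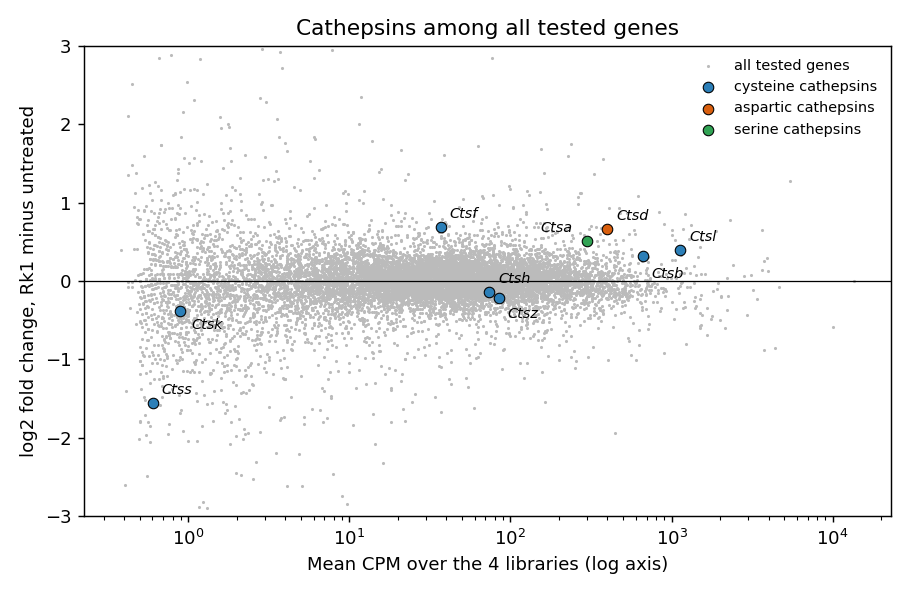
Log2 fold change (Rk1 minus untreated) against mean CPM over the 4 libraries on a log axis, for 12316 tested genes in grey, of which 30 lie beyond the axis limit of 3, and for the 9 tested cathepsins coloured by catalytic type. The 5 cathepsins that rose include the 4 most abundant ones, Ctsz and Ctsh lie just below 0, and Ctsk and Ctss lie among the least abundant tested genes.

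Ctsl (ENSRNOG00000018566, chromosome 17, 1872848 to 1879279, minus strand, Rnor_6.0), the major lysosomal cysteine endopeptidase of many cells, was the most abundant cathepsin. It had 1279 and 1295 CPM in the Rk1 libraries, against 986 and 973 CPM in the untreated libraries. The groups did not overlap, and the libraries of each group lay close together. The log2 fold change was 0.39 ± 0.04, which is 1.31-fold, with an edgeR adjusted p of 0.00046.

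Per kilobase of exon, which allows levels of different genes to be set side by side, Ctsl stood at 783 ± 6.85 CPM per kb with Rk1 and 596 ± 5.66 CPM per kb untreated (SD, n = 2 each). Over the 4 libraries its mean level per kb ranked 99 of 12316 tested genes. The rat genome carries many Ctsl relatives expressed in placenta, most of them on chromosome 17 near Ctsl, whose similarity could divide reads. Of 14 other table rows described as cathepsins, 12 had 0 counts in every library and no row exceeded 4 counts in any, so few reads were assigned to such relatives.

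Ctsb (ENSRNOG00000010331, chromosome 15, 46316741 to 46337612, plus strand), a cysteine protease that acts both as an endopeptidase and by removing dipeptides from carboxyl ends, came second in level. Its values were 763 and 708 CPM with Rk1, against 596 and 583 CPM untreated. The treated libraries differed from each other more than the untreated ones did, yet both were above them. The log2 fold change was 0.32 ± 0.05 (1.25-fold, edgeR adjusted p = 0.0037), the smallest rise among the 5.

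Ctsf (ENSRNOG00000019708, chromosome 1, 220114228 to 220119976, plus strand) encodes a cysteine endopeptidase with an unusually long propeptide. It had 48.3 and 42.7 CPM in Rk1 cells, against 27.7 and 28.6 CPM in untreated cells, so the groups were well apart at a level far below Ctsl. Its log2 fold change of 0.69 ± 0.07 (1.62-fold, edgeR adjusted p = 0.00088) was the largest estimate among the rising cathepsins, but the estimate for Ctsd lies within its error.

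Ctsz (ENSRNOG00000050697, chromosome 3, 172527107 to 172537877, minus strand), a carboxypeptidase also called cathepsin X, had 78.8 and 77.3 CPM with Rk1, against 93.2 and 88.8 CPM untreated. The groups did not overlap, and Ctsz fell by 0.22 ± 0.05 on the log2 scale (edgeR adjusted p = 0.016). That call is not secure, since the adjusted p was 0.051 by DESeq2, 0.066 without Rk1 replicate 2 and 0.086 without untreated replicate 1, within a range of 0.0065 to 0.086 over 11 alternatives.

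Ctsh (ENSRNOG00000014064, chromosome 8, 97439161 to 97458287, plus strand), an aminopeptidase, had 68.0 and 72.0 CPM with Rk1, against 72.9 and 81.7 CPM untreated. The higher treated library almost reached the lower untreated one, and the difference did not pass (log2 fold change -0.14 ± 0.07, edgeR adjusted p = 0.17). Ctsc (ENSRNOG00000016496, chromosome 1, 151918571 to 151949983, plus strand), the dipeptidyl peptidase that activates the granule proteases of leukocytes, had 7 and 10 counts with Rk1, against 8 and 7 counts untreated. These ranges overlapped, and the gene was too low to be tested.

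Ctsk and Ctss, cysteine endopeptidases known for the breakdown of bone collagen by osteoclasts (Ctsk) and for the processing of the MHC class II invariant chain in antigen-presenting cells (Ctss), were close to the limit of detection. Ctsk (ENSRNOG00000021155, chromosome 2, 196655469 to 196666446, plus strand) had 15 and 13 counts with Rk1, against 23 and 16 counts untreated. Its log2 fold change was -0.38 ± 0.33 (edgeR adjusted p = 0.45). Ctss (ENSRNOG00000021157, chromosome 2, 197655786 to 197679458, plus strand) had 0 and 11 counts with Rk1, against 22 and 13 counts untreated.

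For Ctss the treated libraries differed from each other as much as the groups did, since 0 counts in Rk1 replicate 1 allow up to 0.167 CPM and Rk1 replicate 2 had 0.604 CPM. Both untreated libraries but only 1 Rk1 library exceeded the abundance filter for this gene. The difference did not pass (log2 fold change -1.56 ± 0.85, edgeR adjusted p = 0.24). Without Rk1 replicate 2 it did pass (adjusted p = 0.014, in a range of 0.014 to 0.53 over 10 alternatives), on the strength of the library with no counts alone. Cd74, the invariant chain itself, had 0 and 1 counts with Rk1, against 9 and 4 counts untreated, too few to be tested.

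**Figure D2:**
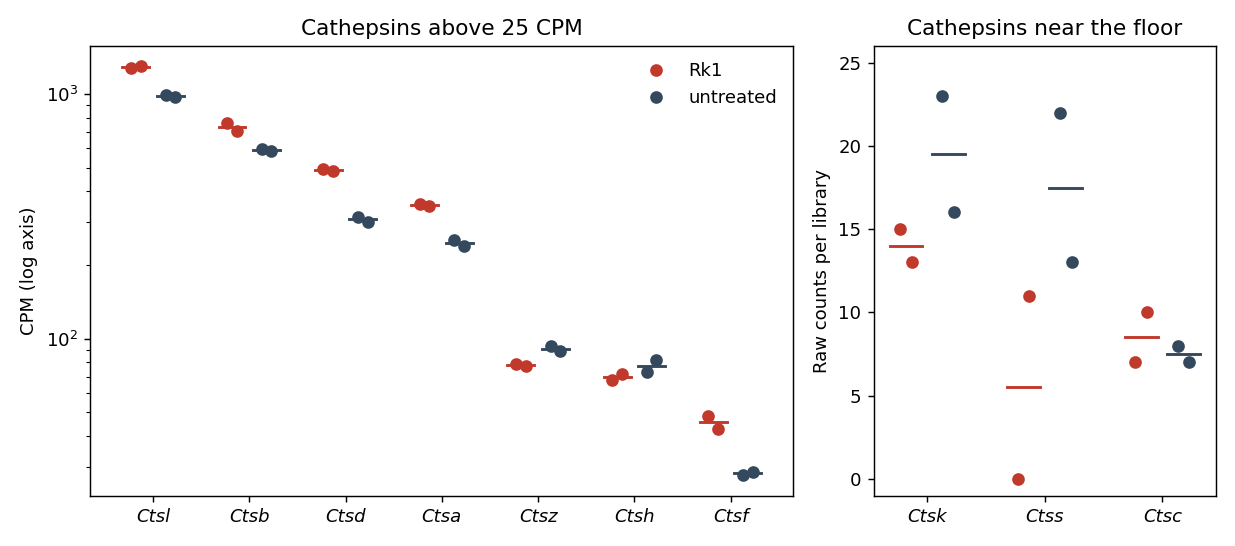
Left, CPM on a log axis of the 7 abundant cathepsins, and right, raw counts on a linear axis of the 3 scarce ones, with a point for each library and a bar for the mean of the 2 Rk1 (left in each pair) and 2 untreated libraries. Ctsl, Ctsb, Ctsd, Ctsa and Ctsf are higher in both Rk1 libraries, Ctsz and Ctsh are lower, and Ctss is split between 0 and 11 counts within the Rk1 group.

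Ctsd (ENSRNOG00000020206, chromosome 1, 215541542 to 215553451, minus strand), the aspartic member and a widely used lysosome marker, rose most clearly. It had 494 and 486 CPM in Rk1 cells, against 315 and 301 CPM in untreated cells. The gap between the groups was many times the distance between libraries of a group. Its log2 fold change was 0.67 ± 0.04 (1.59-fold), with the smallest adjusted p of the family (edgeR, 0.00012).

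Ctsa (ENSRNOG00000015857, chromosome 3, 161298962 to 161304625, plus strand), the serine member, is both a carboxypeptidase and the protective protein that stabilises beta-galactosidase and neuraminidase in lysosomes. Its values were 353 and 348 CPM with Rk1, against 254 and 238 CPM untreated. The groups did not overlap, and the log2 fold change was 0.51 ± 0.05 (1.42-fold, edgeR adjusted p = 0.00047). Neurl2 and Pltp overlap Ctsa on the other strand, and the strand setting of the counting is not given, so reads there could belong to either gene. Pltp, a phospholipid transfer protein gene, had 586 and 566 counts with Rk1, against 884 and 727 counts untreated, and fell by 0.39 ± 0.07 (edgeR adjusted p = 0.0063).

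Among the types, the aspartic and the serine gene both rose. Of the 7 tested cysteine genes 3 rose, 1 fell (Ctsz, a call that is not secure) and 3 did not pass. Of all tested genes 11.5% were called higher and 10.5% lower. The median log2 fold change of the 7 cysteine genes was -0.14, with Ctsh, Ctsz, Ctsk and Ctss below 0. That median leans on Ctsk and Ctss, which were close to the limit of detection. Among the abundant cysteine genes, Ctsl, Ctsb and Ctsf rose, while Ctsz and Ctsh lay below 0. The types were also compared as shares of the cathepsin counts within each library, which library size cannot alter. Cysteine types held 72.5% in each Rk1 library (exact binomial 95% intervals 72.2% to 72.9% and 72.1% to 72.9%), against 75.8% and 76.5% in the untreated libraries (75.4% to 76.1% and 76.1% to 76.9%). These intervals cover counting error only.

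Ctsd held 16.0% of the cathepsin counts in each Rk1 library, against 13.4% and 13.1% in the untreated libraries. Ctsa held 11.5% in each Rk1 library, against 10.8% and 10.4% in the untreated libraries. The aspartic share was thus higher by 2.75 percentage points, the serine share by 0.87 and the cysteine share lower by 3.62, in each case with no overlap between the groups. With 2 libraries against 2, an exact permutation test cannot go below p = 0.33 (two-sided), so these shares are given without a test.

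The share of the main cysteine member did not separate the groups. Ctsl held 41.5% and 42.7% of cathepsin counts with Rk1, against 42.0% and 42.4% untreated, and these ranges overlapped. Ctsb held 24.7% and 23.4%, against 25.4% and 25.4%. Ctsz held 2.55% in both Rk1 libraries, against 3.97% and 3.87%, and Ctsh 2.20% and 2.38%, against 3.10% and 3.56%. Ctsf alone among the cysteine types took a larger share, 1.56% and 1.41% with Rk1 against 1.18% and 1.25% untreated.

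The ratio of Ctsd to Ctsz counts within a library was 6.27 and 6.28 in Rk1 cells, against 3.38 and 3.39 in untreated cells, so it was nearly constant within a group. Ctsa to Ctsz gave 4.49 and 4.50 with Rk1, against 2.73 and 2.68 untreated. Ctsl to Ctsb gave 1.68 and 1.83 with Rk1, against 1.66 and 1.67 untreated, a ratio that moved little.

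**Figure D3:**
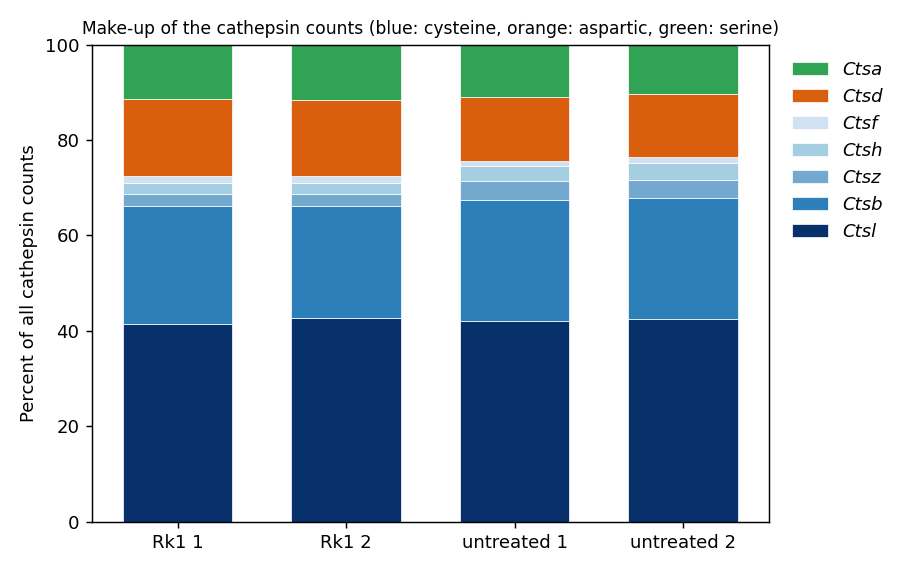
Stacked bars of the percent of all cathepsin counts held by each of the 7 abundant members, for the 2 Rk1 and 2 untreated libraries (blue, cysteine; orange, aspartic; green, serine; Ctsk, Ctss and Ctsc are too small to draw). The orange Ctsd block is 16.0% in both Rk1 libraries and 13.4% and 13.1% in the untreated ones, while the Ctsl block stays between 41.5% and 42.7%.

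Per kilobase of exon, the order of levels with Rk1 was Ctsl, Ctsb (379 ± 19.9 CPM per kb, SD), Ctsd (242 ± 2.93), Ctsa (155 ± 1.73), Ctsz (57.6 ± 0.759), Ctsh (40.4 ± 1.64) and Ctsf (24.4 ± 2.09). In untreated cells the order of these 7 was the same, with Ctsb at 304 ± 4.43, Ctsd at 152 ± 5.07, Ctsa at 109 ± 4.88, Ctsz at 67.2 ± 2.26, Ctsh at 44.6 ± 3.62 and Ctsf at 15.1 ± 0.361 CPM per kb. Neighbours among these 7 did not overlap between libraries in either group. Ctsk, Ctss and Ctsc stood below 1 CPM per kb on average in both groups, and the ranges of Ctsk with Ctss overlapped in both.

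The upstream sequence was examined for the element through which the transcription factor TFEB and its relatives are known to act on many lysosomal genes, a palindrome around the letters CACGTG. The RefSeq promoter table (GRCr8, 250 bases before to 50 after each start) held 9 of the 10 members, all but Ctsb. TCACGTGA, which reads the same on both strands and contains CACGTG, was present in 1 of the 9, Ctsd, and in 0.777% of 33469 promoters. CACGTG was present in 2 of the 9, Ctsd and Ctsf, and in 6.42% of all promoters. The longer palindrome with a G before and a C after TCACGTGA was in none of the 9 and in 0.233% of all. The 250 bases before the start are printed for Ctsd and Ctsf, the rising members with CACGTG, and for Ctsz, the member that fell, with CACGTG in capitals, 5′ to 3′ on the gene's strand.
Ctsd, chr1:206968822-206969071, minus strand: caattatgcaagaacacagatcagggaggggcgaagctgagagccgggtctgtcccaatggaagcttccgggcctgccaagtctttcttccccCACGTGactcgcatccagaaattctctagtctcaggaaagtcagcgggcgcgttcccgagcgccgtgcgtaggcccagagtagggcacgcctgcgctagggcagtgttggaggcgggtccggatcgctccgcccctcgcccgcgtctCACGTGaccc
Ctsf, chr1:211581919-211582168, plus strand: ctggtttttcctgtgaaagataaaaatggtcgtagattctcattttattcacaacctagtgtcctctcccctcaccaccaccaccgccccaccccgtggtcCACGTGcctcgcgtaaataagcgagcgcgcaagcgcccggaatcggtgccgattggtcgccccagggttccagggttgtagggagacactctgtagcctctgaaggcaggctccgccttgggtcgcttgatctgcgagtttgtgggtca
Ctsz, chr3:183653848-183654097, minus strand: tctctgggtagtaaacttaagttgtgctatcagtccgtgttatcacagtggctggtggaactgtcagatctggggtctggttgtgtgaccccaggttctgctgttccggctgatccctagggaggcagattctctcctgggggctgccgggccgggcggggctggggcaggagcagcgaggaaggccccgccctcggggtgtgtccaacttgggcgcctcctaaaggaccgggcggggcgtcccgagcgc

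In Ctsd the letters CACGTG begin 157 and 10 bases before the start, and the nearer copy lies within TCACGTGA. In Ctsf the single copy begins 149 bases before the start. Ctsl and Ctsa, which rose, held none of the 3 motifs in this window. In the related lists, Igf2r held 2 copies of the longest motif and Gnptg held TCACGTGA, and neither passed, while Gga2 held CACGTG and fell and Cstb, Glb1 and Nagpa held CACGTG and rose. A match is a description of letters and not of binding, and absence from the window says nothing about the factor.

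Genes that act on or with the cathepsins were taken from lists fixed alongside the members, with earlier results of these data known. Of 5 cystatin inhibitors, 3 (Csta, Cst6 and Cst7) had 0 counts in every library. Cstb, which encodes the cytosolic cystatin B, rose by 0.63 ± 0.06 (edgeR adjusted p = 0.00042), with 133 and 122 CPM with Rk1 against 82.2 and 82.3 CPM untreated. Cst3, the secreted cystatin C, had 144 and 138 CPM with Rk1, against 156 and 143 CPM untreated, and did not pass (-0.09 ± 0.06, adjusted p = 0.29).

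The ratio of Ctsl to Cst3 counts was 8.90 and 9.42 with Rk1, against 6.31 and 6.80 untreated. The ratio of Ctsl to Cstb was 9.61 and 10.7 with Rk1, against 12.0 and 11.8 untreated. Relative to Ctsl, the secreted inhibitor was thus lower and the cytosolic inhibitor higher with Rk1.

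Of 12 sorting and maturation genes, 5 rose, 1 fell and 6 did not pass, with a median log2 fold change of 0.09. Over all tested genes 11.5% were called higher and 10.5% lower. Psap, the precursor of the saposins that aid lipid hydrolases, had 1245 and 1222 CPM with Rk1, against 883 and 836 CPM untreated, and rose by 0.52 ± 0.04 (edgeR adjusted p = 0.00026). Grn, progranulin, rose by 0.44 ± 0.05 (adjusted p = 0.0012). Lgmn, the asparaginyl endopeptidase that helps process cathepsin precursors, rose by 0.29 ± 0.05 (adjusted p = 0.0068).

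The other called genes of that list belong to the mannose 6-phosphate route and its clathrin adaptors. Nagpa, the uncovering enzyme, was 0.51 ± 0.12 higher (edgeR adjusted p = 0.022) and the adaptor gene Gga1 0.22 ± 0.05 higher (0.017), while the adaptor gene Gga2 fell by 0.36 ± 0.07 (0.0094). Nagpa and Gga1 were not called by DESeq2 (adjusted p = 0.13 for each), and Nagpa not without Rk1 replicate 2 or untreated replicate 2. Gga1 was not called when any library other than Rk1 replicate 1 was left out (adjusted p = 0.07 to 0.092), and Gga2 was not called without untreated replicate 2 (adjusted p = 0.057). Over 11 alternatives the adjusted p ran from 0.0095 to 0.13 for Nagpa, 0.0098 to 0.13 for Gga1 and 0.0017 to 0.057 for Gga2. The receptor gene Igf2r had 448 and 441 CPM with Rk1, against 423 and 413 CPM untreated, and did not pass (0.09 ± 0.04, adjusted p = 0.16).

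Of the partners that Ctsa protects, Glb1, beta-galactosidase, rose by 0.40 ± 0.05 (edgeR adjusted p = 0.0012), with 181 and 187 CPM with Rk1 against 142 and 137 CPM untreated. Neu1, neuraminidase, had 26.4 and 24.4 CPM with Rk1, against 23.5 and 22.1 CPM untreated, and did not pass (0.16 ± 0.08, adjusted p = 0.21). Of 5 tested genes for factors of the TFEB family and their brakes, 2 rose and 0 fell, beside 11.5% and 10.5% of all tested genes. The brakes Flcn, folliculin (0.58 ± 0.07, adjusted p = 0.0017), and Fnip2, its partner (0.69 ± 0.08, adjusted p = 0.0011), rose. The factors did not pass, with Tfeb at -0.08 ± 0.08, Tfe3 at 0.15 ± 0.05 and Mitf at 0.13 ± 0.10 (adjusted p = 0.56, 0.075 and 0.37).

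Of 5 other lysosomal peptidases tested, 4 rose and 0 fell, beside 11.5% and 10.5% of all tested genes. Their median log2 fold change was 0.51, against 0.00 over all tested genes. Dpp7, a dipeptidyl peptidase, rose by 0.76 ± 0.04 (edgeR adjusted p = 6.9e-05), with 151 and 149 CPM with Rk1 against 88.8 and 88.6 CPM untreated. Tpp1, a tripeptidyl peptidase, rose by 0.58 ± 0.05, Cpq by 0.51 ± 0.05 and Scpep1, a serine carboxypeptidase related to Ctsa, by 0.39 ± 0.04. Prcp, a further serine carboxypeptidase, had 47.4 and 51.9 CPM with Rk1, against 51.8 and 53.5 CPM untreated, and did not pass (adjusted p = 0.36). Of 11 other cathepsin genes on the list, 9 were matched in the table and none of these was abundant enough to be tested. Their highest count was 4, for Ctse, an aspartic relative of Ctsd.

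**Figure D4:**
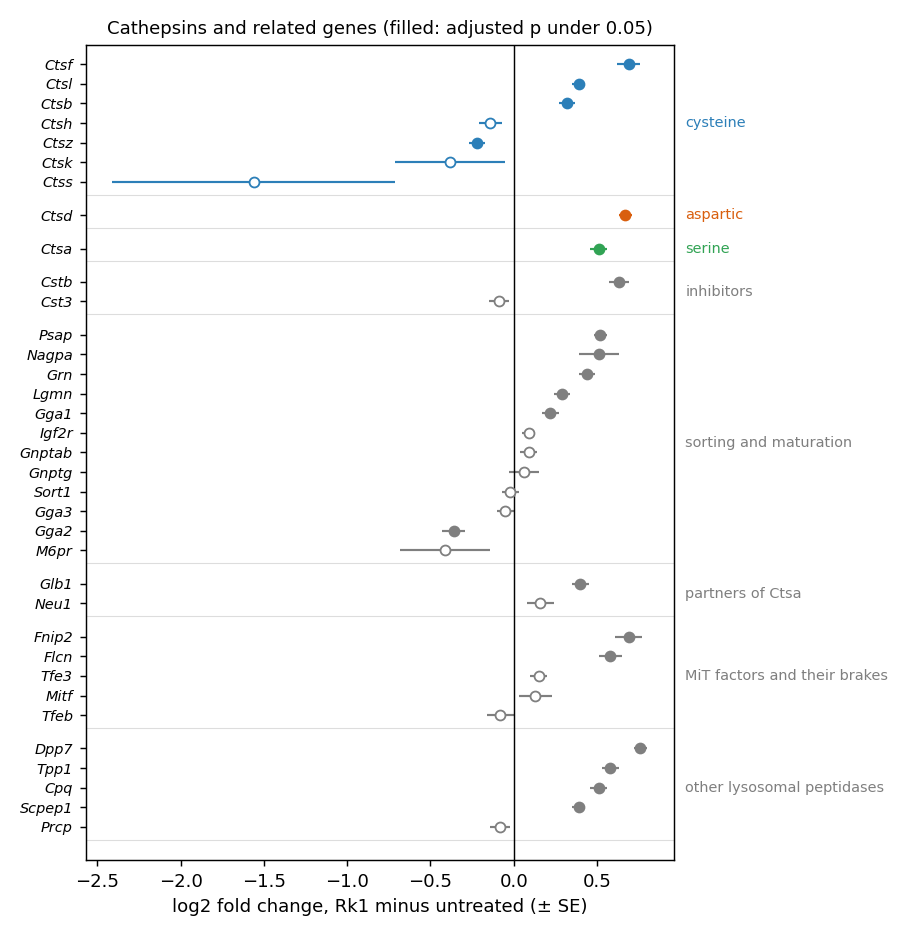
Log2 fold change (Rk1 minus untreated, point) with its standard error (bar) for the tested cathepsins by catalytic type and for the tested genes of the related lists; filled points have an edgeR adjusted p under 0.05. The filled cathepsins are Ctsf, Ctsl, Ctsb, Ctsd and Ctsa to the right of 0 and Ctsz to the left, and the bar of Ctss is the widest.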

How the data were processed

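RNA from 4 libraries of HSC-T6 cells was sequenced, and samples were grouped by the treatment in the labels. Per the submitters' processing notes, HISAT2 and HTSeq were used, with versions and strand setting not given in the sources used here. What the authors deposited are raw counts per gene with exon lengths and Rnor_6.0 positions, per the file headers.

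Genes were kept by edgeR's filterByExpr (minimum count 10, minimum total 15), leaving 12316. The fit used R 4.3.3 and edgeR 4.0.16 with TMM factors (0.994 to 1.01), a single group term and 2 residual degrees of freedom. The standard error is the fold change divided by the square root of F. On simulated data the share of false calls was well above what the threshold of 0.05 allows. That was a single run with far fewer changed genes than were called here, so the share need not carry over. Calls close to the threshold are best read as less secure than their adjusted p. DESeq2 1.42.0 and limma 3.58.1 were alternatives. No library duplicates another, as the spread of counts within a group exceeded sampling noise (reduced chi-square 4.67 with Rk1 and 4.57 untreated). A count of 0 allows up to 3 counts, and intervals cover counting error only.

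The members and lists were chosen with earlier results of these data known. All 10 members are named, every tested gene of cathepsin-related lists of up to 7, and the 6 with the smallest adjusted p of the longer sorting list. Marker genes were named for the check of the cell label. Fnip1, Ctso, Ctsll3 and Pecam1 were not matched by symbol and are not analysed here. Igf2r, Ctse, Cd74 and Pltp were named after their values were seen.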

Additional observations from a re-analysis of the deposited data

How the results depend on the processing

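The 5 rises (Ctsl, Ctsb, Ctsf, Ctsd and Ctsa) were called under all 11 alternatives to the fit, with log2 fold changes from 0.27 (the lowest of Ctsb) to 0.78 (the highest of Ctsf). The number of cathepsins called lower was 0 by DESeq2 and 0 to 1 when a library was left out; without Rk1 replicate 2 the call was Ctss in place of Ctsz. Over all genes, 2711 were called, against 1712 by DESeq2 and 1710 to 2046 with a library left out, the lowest without untreated replicate 2. Members of the related lists called lower numbered 0 to 2 with a library left out. Same-numbered libraries did not deviate together over all tested genes (correlation 0.06). Whether the numbers pair libraries is not stated, and such a correlation can miss a pairing that moves only some genes. With a replicate block 3214 genes were called, and the block changed no cathepsin call. Without the gene Ctsl the share differences (Rk1 minus untreated) were -6.19 percentage points for cysteine, 4.72 for aspartic and 1.48 for serine types, and without Ctsd -1.44 for cysteine and 1.44 for serine types, against -3.62, 2.75 and 0.87 with all members. The motif shares of all promoters were 6.42% for CACGTG, 0.233% for the longer palindrome and, chosen after seeing the promoters, 8.02% for TCACGTGA with up to 1 mismatch, which Ctsl and Ctss then also held. Ctsk, Ctss and Ctsc have too few counts for modest differences to be detectable at this depth.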
